A study of Homo sapiens with 12 samples.

Results

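The 9 genes described here encode surface proteins that antibodies, bispecific antibodies or CAR T cells have been directed at in multiple myeloma. They were chosen by name, as TNFRSF17 (BCMA), TNFRSF13B (TACI), GPRC5D, FCRL5, CD38, SDC1 (CD138), SLAMF7, CD40 and CD70, out of 60666 Ensembl gene IDs in the deposited count table. RNA was measured in KMS-11, KMS-12 and RPMI8226, which are 3 established human myeloma lines grown in culture and labelled WT. The 6 groups were KMS-11 with JQ1, KMS-11 with DMSO, KMS-12 with JQ1, KMS-12 with DMSO, RPMI8226 with JQ1 and RPMI8226 with DMSO, with 2 libraries each and 12 in all. JQ1 was given at 1 µM for 72 h, and the control cells received an equal volume of its solvent, DMSO. The study describes a duplicate experiment without saying whether the 2 libraries of a group came from separate cultures, so p-values measure only the spread between these libraries.

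JQ1 displaces the BET bromodomain proteins from acetylated histones, and genes of plasma cells that depend on strong enhancers are known to be sensitive to it. BCMA, TACI and CD40 are receptors of the TNF receptor superfamily. BCMA and TACI bind the B cell survival factors APRIL and BAFF, CD40 binds the CD40 ligand of T cells, and CD70 is itself a TNF family ligand, of the receptor CD27. SLAMF7 and FCRL5 are immunoglobulin-like receptors of lymphocytes, CD38 is an ectoenzyme that consumes NAD, SDC1 is a heparan sulfate proteoglycan that marks plasma cells, and GPRC5D is an orphan receptor of the G protein-coupled type. BCMA is shed from the cell surface by gamma-secretase, and SDC1 by metalloproteases, so an RNA level is not a level of surface protein.

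Each library held 15424512 to 27366499 counts. All 9 genes passed the filter on low counts, as did 23493 of the 60666 IDs (38.7%). Levels are given as CPM, counts scaled to a common library total, after TMM scaling, and a gene with no read in a library may have had up to 0.107 to 0.178 CPM, the worth of 3 counts; such limits take in counting error and nothing else, since PCR copies cannot be told from separate molecules here. TMM scaling lets the genes of a library move about a common centre, and with library size alone the median of all genes moved by -0.77 (log2) in KMS-12, -0.26 in KMS-11, -0.03 in RPMI8226 and -0.35 in the average of the lines. The share of calls that were higher with JQ1 was then 7.49% in place of 44.0% in KMS-12, 23.8% in place of 45.0% in KMS-11, 39.4% in place of 42.2% in RPMI8226 and 17.0% in place of 45.6% in the average, so changes here are relative to the other genes. The plasma cell markers, which include the members TNFRSF17, SDC1 and CD38, were read in every group, 9 of 9. They summed to 2445 to 8275 CPM per library. In KMS-11 the sum was 3841 to 5295 CPM with JQ1 against 7714 to 8275 CPM with DMSO. It was 4056 to 4101 against 2445 to 2461 CPM in KMS-12 and 3403 to 3498 against 5216 to 6240 CPM in RPMI8226. No list of markers of T and NK cells, of myeloid cells or of stromal, epithelial and endothelial cells summed to more than 69.3 CPM in any library. Of the 8 B cell markers, MS4A1 had 0 reads in both groups of KMS-12. In KMS-11 it had 0 reads with JQ1 and 1 with DMSO. The 8 B cell markers summed to 3.52 to 6.79 CPM in JQ1 and 19.4 to 21.7 CPM in DMSO libraries of KMS-11. They summed to 0.555 to 0.631 against 4.45 to 5.68 CPM in KMS-12 and to 11.8 to 16.3 against 32.7 to 43.1 CPM in RPMI8226, with 5 and 6 of 8 read in KMS-12 JQ1 and DMSO cells, 5 and 7 in KMS-11 and 7 and 8 in RPMI8226. The T and NK cell list, of which 5 of 8 genes were read in KMS-12 JQ1 and DMSO cells alike, summed to 1.26 to 1.51 CPM in JQ1 and 13.4 to 13.9 CPM in DMSO libraries of that line, with CD3D and NKG7 at 0 in both. It summed to 0.617 to 1.19 against 2.83 to 3.62 CPM in KMS-11 and to 4.28 to 5.11 against 11 to 11.1 CPM in RPMI8226. The stromal, epithelial and endothelial list was lower with JQ1 in each line, at 6.0 to 6.57 against 37.9 to 41.4 CPM in KMS-11 (6 and 8 of 8 genes read), 5.55 to 5.58 against 28.9 to 29.3 CPM in KMS-12 (6 and 6) and 40.0 to 48.9 against 64.2 to 69.3 CPM in RPMI8226 (7 and 6). The myeloid list was lower with JQ1 in RPMI8226, at 3.42 to 5.64 against 22.5 to 26.4 CPM (5 and 4 of 7), and higher in KMS-11, at 3.53 to 4.14 against 1.46 to 2.09 CPM (6 and 6), and in KMS-12, at 1.67 to 1.74 against 0.784 to 0.801 CPM (5 and 5). The part of these lists in the members' changes was not tested. FGFR3, which marks KMS-11, averaged 928 CPM in JQ1 and 2597 CPM in DMSO cells of that line and at most 0.0720 CPM in any group of the other lines.

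TNFRSF17 and SLAMF7 were the members that fell in every line. TNFRSF17 fell 20.7-fold in KMS-11, 5.60-fold in KMS-12 and 39.5-fold in RPMI8226, and SLAMF7 fell 11.5-fold, 17.6-fold and 45.2-fold in the same order of lines. SLAMF7 had just 6 reads with JQ1 against 329 with DMSO in RPMI8226. GPRC5D and CD38 took opposite directions, lower with JQ1 in RPMI8226 and higher in KMS-12. In KMS-12 GPRC5D had just 24 reads with JQ1 against 3 with DMSO. The CD38 rise in that line did not pass the test with library size alone. SDC1, the most abundant member per kilobase in DMSO cells of KMS-11 and RPMI8226, did not pass the test in any line, though it did in KMS-11 and RPMI8226 under other settings. CD70 passed the test in KMS-12, higher with JQ1, but not with library size alone. In these bulk cultures fewer cells carrying a transcript and less of it per cell cannot be told apart.

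**Figure D1:**
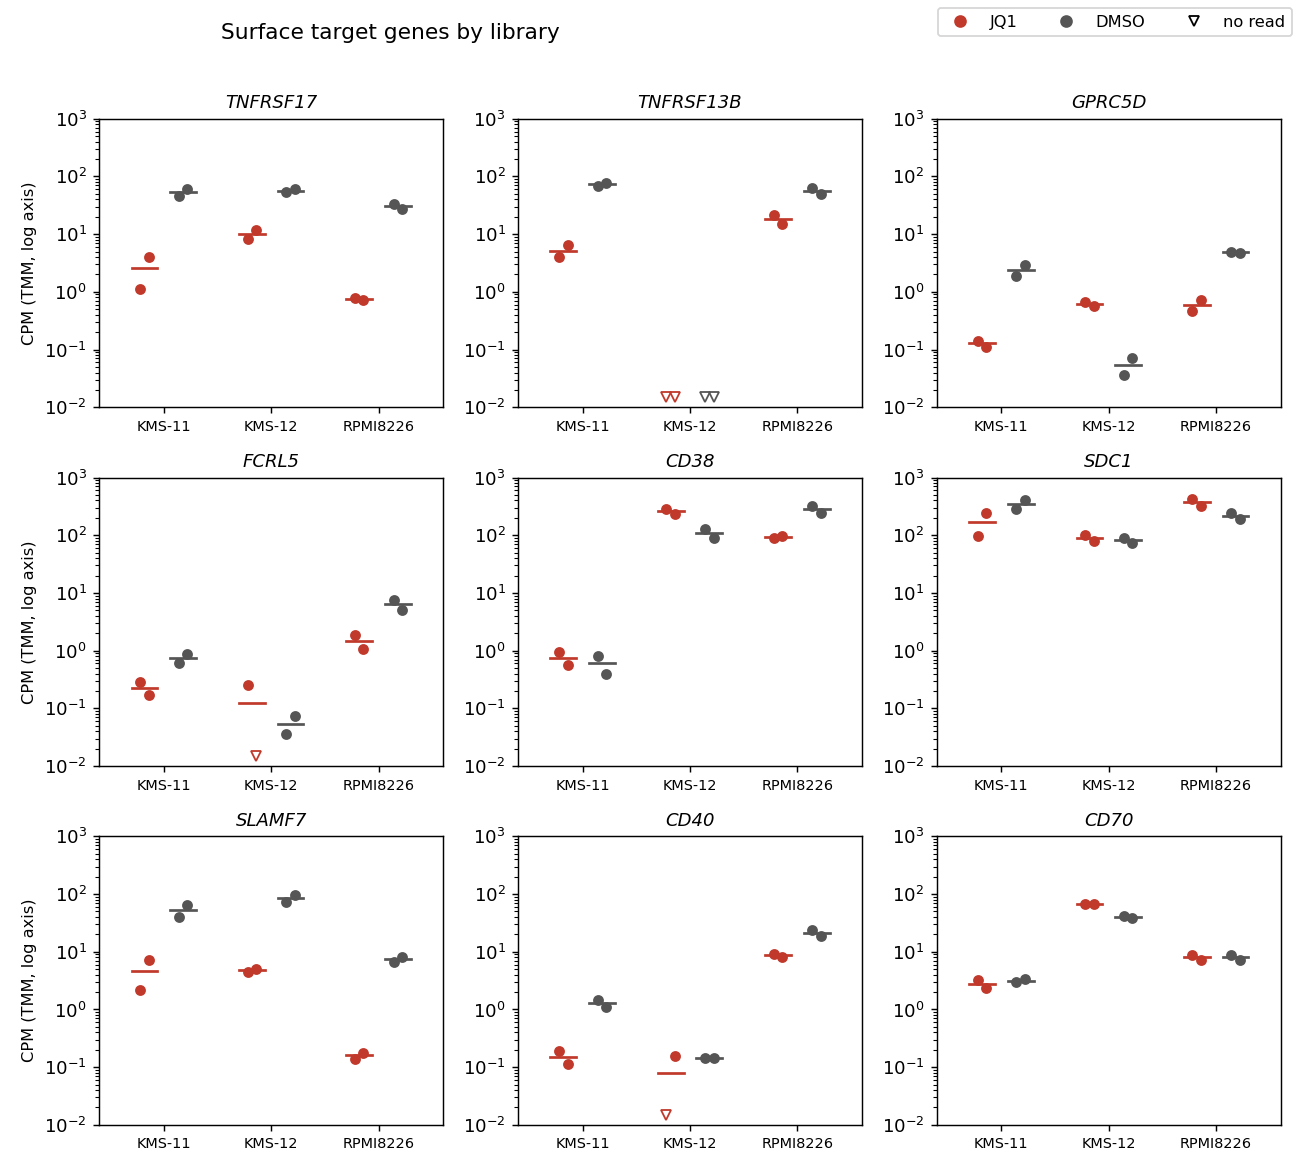
CPM (TMM scaled, log axis) of the 9 surface target genes in each library of KMS-11, KMS-12 and RPMI8226, JQ1 in red left of DMSO in grey; bars are the means of 2 libraries and open triangles are libraries with no read, drawn near the foot of the axis. TNFRSF17 and SLAMF7 lie lower in JQ1 than in DMSO libraries of each line, while CD38 and GPRC5D lie higher in JQ1 libraries of KMS-12 and lower in those of RPMI8226.

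Between JQ1 and DMSO cells, 5 of the 9 members passed the test in KMS-11, all lower, where 38.5% of all genes tested were called and 21.2% were called lower. In KMS-12, 5 members passed, 3 of them higher and 2 lower, against 46.0% of all genes called, 20.2% higher and 25.7% lower; TNFRSF13B had no read in that line and could not be tested there. In RPMI8226, 7 of 9 passed, all lower, against 32.2% of all genes called and 18.6% lower. In the average of the 3 lines, 4 passed, all lower, against 49.0% called and 26.7% lower. The median log2 change of the members with an estimate was -3.03 in KMS-11 beside -0.02 over all genes, 0.46 in KMS-12 beside -0.10, and -1.63 in RPMI8226 beside -0.04. With library size alone the KMS-12 median of the members turned to -0.31, with 1 member called higher and 2 lower. Genes at large shifted by -0.77 (log2) under that scaling, so the new sign is not a fall relative to other genes. Only 7.49% of calls in KMS-12 were then higher. Shares called higher or lower among all genes are not given for it, so these 2 counts stand without a background. Calls are those with a p under 0.05 in edgeR's quasi-likelihood test after Benjamini-Hochberg (BH) adjustment over all 23493 genes.

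**Figure D2:**
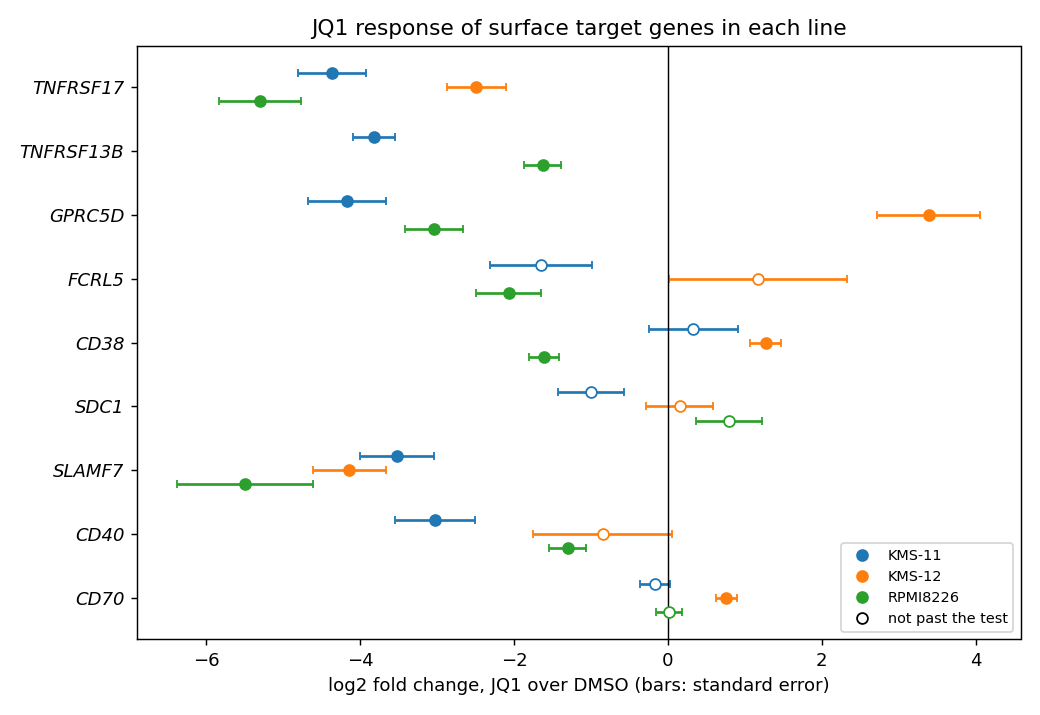
The log2 fold change of JQ1 over DMSO for each member in KMS-11, KMS-12 and RPMI8226, with its standard error; filled points passed the test and open points did not, and TNFRSF13B has no point for KMS-12, where it had no read. SLAMF7 and TNFRSF17 are filled and left of 0 in all lines, and GPRC5D has its KMS-12 point at 3.39 and its other points at -4.17 and -3.04.

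TNFRSF17 encodes BCMA, the receptor that sustains long-lived plasma cells (ENSG00000048462, GRCh38 chromosome 16, 11965107 to 11968068, plus strand). In KMS-11 it had 1.14 and 4.09 CPM in JQ1 libraries against 45.6 and 60.0 CPM in DMSO libraries. In KMS-12 it had 8.23 and 12 CPM with JQ1 against 53.3 and 59.9 CPM with DMSO, and in RPMI8226 0.797 and 0.713 CPM against 33.2 and 27.2 CPM. The JQ1 and DMSO libraries did not overlap in any line, and JQ1 cells of KMS-12 kept the most of this transcript. With 2 libraries per group a lack of overlap does not by itself show a change, here or for the other members. How many of all genes lacked overlap was not counted. The log2 change was -4.37 (SE 0.44; edgeR BH-adjusted p = 1.14e-04) in KMS-11, -2.49 (SE 0.38; adjusted p = 9.06e-04) in KMS-12 and -5.30 (SE 0.53; adjusted p = 1.58e-04) in RPMI8226. With library size alone the KMS-12 change was -3.26. The KMS-11 value rested on unlike JQ1 libraries and was -3.68 without JQ1 replicate 1 and -5.52 without JQ1 replicate 2. The change in KMS-12 lay 2.82 above that in RPMI8226 on the log2 scale (SE 0.68; edgeR BH-adjusted p = 0.0204), or 2.08 with library size alone. That difference did not pass the test when any 1 of KMS-12 DMSO replicate 1 (2.74), KMS-12 DMSO replicate 2 (2.91), KMS-12 JQ1 replicate 2 (2.53), RPMI8226 DMSO replicate 1 (2.67), RPMI8226 JQ1 replicate 1 (2.91) or RPMI8226 JQ1 replicate 2 (2.75) was left out. KMS-11 and KMS-12 responses differed by -1.89 (SE 0.57; adjusted p = 0.0564), which passed the test with the replicate number as a block (-1.93, edgeR adjusted p = 0.00197) and without KMS-11 JQ1 replicate 1 (-1.20) or 2 (-3.04). It also passed with DESeq2 (adjusted p = 0.0458), limma-voom (0.00969), no filter beyond 1 read (0.0475) and a mean of at least 1 CPM (0.0328). The responses of KMS-11 and RPMI8226 differed by 0.93, not past the test (adjusted p = 0.554), though by 1.62 and past it without KMS-11 JQ1 replicate 1, and by -0.22 without replicate 2. TNFRSF17 levels in DMSO cells were 52.8 ± 10.2 CPM in KMS-11, 56.6 ± 4.62 CPM in KMS-12 and 30.2 ± 4.25 CPM in RPMI8226 (SD, n = 2 each), and no pair of lines differed past the test. With the replicate block, with limma-voom, or without either JQ1 library of KMS-11, RPMI8226 was lower than KMS-11 (block, edgeR adjusted p = 0.00403) and than KMS-12 (block, edgeR adjusted p = 0.00162), and the KMS-12 difference was also called with library size alone (0.0220), at a mean of at least 1 CPM (0.0325) and with only those lines fitted (1.77e-05).

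TNFRSF13B encodes TACI, which shares both ligands with BCMA (ENSG00000240505, chromosome 17, 16929816 to 16972118, minus strand). It had 0 reads in all 4 KMS-12 libraries, JQ1 and DMSO alike. In KMS-11 it had 3.95 and 6.45 CPM with JQ1 against 69.0 and 77.2 CPM with DMSO, and in RPMI8226 21.6 and 14.7 CPM with JQ1 against 63.6 and 48.7 CPM with DMSO. Groups did not overlap in either line that expressed it. It fell by 3.82 on the log2 scale in KMS-11 (SE 0.27; edgeR BH-adjusted p = 2.63e-06) and by 1.63 in RPMI8226 (SE 0.24; adjusted p = 5.97e-04). The response of KMS-11 lay below that of RPMI8226 by a tested difference of -2.20 (SE 0.35; edgeR BH-adjusted p = 0.00312). In DMSO cells KMS-11 was at least 1350-fold and RPMI8226 at least 1028-fold higher than KMS-12, with a floor of 3 counts over the KMS-12 group. KMS-11 and RPMI8226 DMSO cells differed by 0.38 (log2, SE 0.22; adjusted p = 0.174), which passed with the replicate block (edgeR adjusted p = 0.0135), with limma-voom (0.0303) and with no filter beyond 1 read (0.0252). Its exons share 615 bases on the same strand with the pseudogene TBC1D27P, whose reads in KMS-11 were 169 and 337 with JQ1 and 3559 and 3414 with DMSO, so how reads were divided between them is uncertain.

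CD40, the receptor through which T cells activate B cells (ENSG00000101017, chromosome 20, 46118272 to 46129863, plus strand), had its highest level in RPMI8226. There it had 9.05 and 8.20 CPM with JQ1 against 24.2 and 18.5 CPM with DMSO, a log2 change of -1.30 (SE 0.24; edgeR BH-adjusted p = 5.08e-04). In KMS-11 it had 4 and 2 reads with JQ1 against 38 and 26 reads with DMSO, and the log2 change was -3.03 (SE 0.52; adjusted p = 1.64e-04). In KMS-12 it had 0 and 3 reads with JQ1 against 4 and 4 with DMSO, too few to show a change of this size (ratio 0.536, 95% counting interval 0.0917 to 2.24). JQ1 libraries lay below DMSO libraries in RPMI8226 and KMS-11. The response of KMS-11 minus that of RPMI8226 was -1.73 (SE 0.61; edgeR BH-adjusted p = 0.0826). Any difference between lines had an adjusted p of 0.0900, 0.0383 without KMS-12 JQ1 replicate 1 and 0.0395 with library size alone. The KMS-11 and RPMI8226 difference was called with library size alone (-1.96, adjusted p = 0.0378) and with no filter beyond 1 read (-1.73, adjusted p just under 0.05). In DMSO cells KMS-11 had 1.29 ± 0.249 CPM, KMS-12 0.144 ± 0.00223 CPM and RPMI8226 21.3 ± 4.06 CPM (SD, n = 2 each), and every pair of lines differed past the test, KMS-12 being 142-fold lower than RPMI8226.

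CD70, the ligand of CD27 (ENSG00000125726, chromosome 19, 6583183 to 6604103, minus strand), was highest in KMS-12, and it rose in that line. KMS-12 had 68.1 and 68.2 CPM with JQ1 against 41.5 and 38.8 CPM with DMSO, a log2 change of 0.76 (SE 0.14; edgeR BH-adjusted p = 2.65e-04). With library size alone that change was -0.01, so the rise is one relative to the other genes of KMS-12. KMS-11 had 3.19 and 2.36 CPM with JQ1 against 2.94 and 3.36 CPM with DMSO, and RPMI8226 had 8.77 and 7.31 CPM with JQ1 against 8.84 and 7.20 CPM with DMSO. JQ1 and DMSO libraries overlapped in both of these lines, with 95% intervals of the log2 change of -0.59 to 0.25 in KMS-11 and -0.34 to 0.36 in RPMI8226. The response of KMS-12 lay 0.75 above that of RPMI8226 (SE 0.22; edgeR adjusted p = 0.0177), and that of KMS-11 differed from KMS-12 by -0.94 (SE 0.25; adjusted p = 0.0107). The KMS-12 and RPMI8226 difference was 0.01 with library size alone and was lost without KMS-12 JQ1 replicate 1 (0.75) or 2 (0.76), KMS-12 DMSO replicate 2 (0.71), RPMI8226 DMSO replicate 1 (0.60) or RPMI8226 JQ1 replicate 2 (0.63). The KMS-11 and KMS-12 difference was -0.42 with library size alone and was lost without KMS-11 JQ1 replicate 2 (-0.75). The average over the lines, 0.20 (SE 0.10; adjusted p = 0.104), passed the test without KMS-11 JQ1 replicate 2 (0.27). In DMSO cells KMS-12 exceeded RPMI8226 5.02-fold, and RPMI8226 exceeded KMS-11 2.54-fold, each past the test.

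SLAMF7 (ENSG00000026751, chromosome 1, 160739057 to 160754821, plus strand) encodes a receptor of the SLAM family that binds its own kind on neighbouring cells and is the target of the antibody elotuzumab. In KMS-11 it had 2.19 and 7.07 CPM with JQ1 against 39.9 and 64.1 CPM with DMSO, and in KMS-12 4.49 and 5.10 CPM against 73.9 and 95.4 CPM. In RPMI8226 only 3 and 3 reads were left with JQ1, against 133 and 196 reads with DMSO. The ratio of these reads, scaled for depth, was 0.0212 with a 95% counting interval of 0.00774 to 0.0467. The log2 change was -3.52 (SE 0.48; edgeR BH-adjusted p = 8.86e-04) in KMS-11, -4.14 (SE 0.48; adjusted p = 2.84e-04) in KMS-12 (-4.91 with library size alone) and -5.50 (SE 0.88; adjusted p = 0.00284) in RPMI8226. No difference of response between lines passed the test, the adjusted p for any difference being 0.477. With the replicate block it was 0.0336, and the response of KMS-11 then lay 1.89 above that of RPMI8226 (edgeR adjusted p = 0.0357). Without KMS-11 JQ1 replicate 1 it was 0.00945, and KMS-11 then lay above KMS-12 by 1.26 and above RPMI8226 by 2.62, both past the test. The JQ1 libraries of KMS-11 were again unlike, and its change was -2.88 without JQ1 replicate 1 and -4.57 without JQ1 replicate 2. In DMSO cells KMS-11 (52.0 ± 17.1 CPM) and KMS-12 (84.7 ± 15.2 CPM) did not differ past the test, though they did with the replicate block (edgeR adjusted p = 3.94e-04), with limma-voom (-0.74, adjusted p = 0.0174) and without either KMS-11 JQ1 library. KMS-11 exceeded RPMI8226 (7.34 ± 1.09 CPM; SD, n = 2 each) 7.06-fold, and KMS-12 exceeded it 11.5-fold.

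FCRL5 (ENSG00000143297, chromosome 1, 157513377 to 157552520, minus strand), an Fc receptor-like protein of B cells and plasma cells, was a low transcript outside RPMI8226. RPMI8226 had 1.88 and 1.07 CPM with JQ1 against 7.55 and 5.09 CPM with DMSO, a fall of 4.21-fold (log2 -2.07, SE 0.42; edgeR BH-adjusted p = 9.15e-04). KMS-11 had 6 and 3 reads with JQ1 against 16 and 20 with DMSO, a log2 change of -1.65 (SE 0.66) with adjusted p = 0.0564, or 0.0461 with the replicate block, in edgeR; it was also called without KMS-12 JQ1 replicate 1 (0.0337) or 2 (0.0336), with library size alone (0.0264) and with no filter beyond 1 read (0.0305). KMS-12 had 5 and 0 reads with JQ1 against 1 and 2 with DMSO, where no change was detectable at this depth. The response of KMS-12 minus that of RPMI8226 was 3.24 (SE 1.29; edgeR adjusted p = 0.0807), and without KMS-12 JQ1 replicate 2 it was 4.19 and called, as was any difference between lines (0.0391). The difference was also called with DESeq2 (0.0425) and with no filter beyond 1 read (0.0457). In DMSO cells KMS-11 was 8.51-fold lower than RPMI8226, and it exceeded KMS-12 with a read ratio of 13.6 (95% counting interval 4.29 to 68.9).

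GPRC5D (ENSG00000111291, chromosome 12, 12940775 to 12952147, minus strand), the target of talquetamab, fell in KMS-11 and RPMI8226 and rose in KMS-12. KMS-11 had 3 and 2 reads with JQ1 against 49 and 68 with DMSO, RPMI8226 had 10 and 12 reads against 101 and 113, and KMS-12 had 13 and 11 reads against 1 and 2. In KMS-12 both JQ1 libraries were above both DMSO libraries, and in the other lines both were below. The log2 change was -4.17 (SE 0.51; edgeR BH-adjusted p = 4.56e-06) in KMS-11 and -3.04 (SE 0.38; adjusted p = 1.06e-05) in RPMI8226. In KMS-12 the fitted log2 change was 3.39 (SE 0.67; adjusted p = 4.50e-04), and the ratio of the reads, scaled for depth, was 11.4 with a 95% counting interval of 3.48 to 59.4; the fitted change was 2.65 with library size alone. The response of KMS-12 lay 6.43 above that of RPMI8226 (log2, SE 0.76; edgeR BH-adjusted p = 7.47e-06), or 5.72 with library size alone, and that of KMS-11 minus that of KMS-12 was -7.55 (SE 0.85; adjusted p = 5.16e-06). The average over the lines, -1.27 (SE 0.43; adjusted p = 0.0202), joins these opposite responses and was lost without KMS-12 DMSO replicate 2 (-1.10). JQ1 cells had 0.618 ± 0.0548 CPM in KMS-12 and 0.591 ± 0.172 CPM in RPMI8226 (SD, n = 2 each), a pair not tested, and DMSO cells had 0.0542 ± 0.0263 CPM in KMS-12 and 4.83 ± 0.220 CPM in RPMI8226. An antisense gene, GPRC5D-AS1, lies over GPRC5D without shared exon bases; in KMS-12 it had 158 and 121 reads with JQ1 against 257 and 238 with DMSO.

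CD38 (ENSG00000004468, chromosome 4, 15778275 to 15853230, plus strand), the target of daratumumab and isatuximab, ranged more widely between lines than with treatment. In RPMI8226 it had 88.9 and 98.8 CPM with JQ1 against 327 and 247 CPM with DMSO, and it fell 3.06-fold (log2 -1.61, SE 0.20; edgeR BH-adjusted p = 1.95e-04). In KMS-12 it had 287 and 234 CPM with JQ1 against 126 and 91 CPM with DMSO, and it rose 2.40-fold (log2 1.27, SE 0.20; adjusted p = 4.54e-04), although with library size alone the change was 0.50 and did not pass (adjusted p = 0.0591). KMS-11 had 20 and 10 reads with JQ1 and 21 and 9 with DMSO, a log2 change of 0.33 (SE 0.58) that did not pass. JQ1 libraries lay above DMSO libraries in KMS-12, below them in RPMI8226, and overlapped with them in KMS-11. CD38 was 2.64-fold lower in KMS-12 than in RPMI8226 DMSO cells, and among JQ1 cells it averaged 261 ± 37.8 CPM in KMS-12 and 93.9 ± 6.96 CPM in RPMI8226 (SD, n = 2 each). The response of KMS-12 lay 2.88 above that of RPMI8226 on the log2 scale (SE 0.28; edgeR BH-adjusted p = 5.45e-05), and with library size alone it lay 2.13 above it. The response of KMS-11 minus that of RPMI8226 was 1.95 (SE 0.63; adjusted p = 0.0826), called with the replicate block (1.93, edgeR adjusted p = 0.00502), and was also called without RPMI8226 DMSO replicate 2 (2.14) or either DMSO library of KMS-12 (1.94 and 1.95), with DESeq2 (1.98), with no filter beyond 1 read (1.94) and with only those lines fitted (1.95). DMSO cells of KMS-11 held 466-fold less CD38 than those of RPMI8226 and 176-fold less than those of KMS-12 (log2 -8.86 and -7.46, or -9.51 and -8.10 without KMS-11 DMSO replicate 1).

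Promoter sequence is shown for GPRC5D and CD38 because they passed the test in opposite directions in KMS-12 and RPMI8226. The RefSeq promoter table (GRCh38.p14) held 5 of the 9 members, TNFRSF13B, GPRC5D, FCRL5, CD38 and SDC1, and it did not list TNFRSF17, SLAMF7, CD40 or CD70. Each window is 300 bases around the start in that table, GPRC5D at chr12:12952121-12952420 on the minus strand and CD38 at chr4:15778078-15778377 on the plus strand. For both genes that start differs from the gene boundary given above, and capitals mark a motif match.
GPRC5D: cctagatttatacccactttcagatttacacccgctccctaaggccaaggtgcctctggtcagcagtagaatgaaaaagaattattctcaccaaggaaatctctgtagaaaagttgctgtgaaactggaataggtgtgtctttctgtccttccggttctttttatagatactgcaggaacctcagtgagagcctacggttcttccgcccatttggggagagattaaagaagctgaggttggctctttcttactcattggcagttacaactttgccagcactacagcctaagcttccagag
CD38: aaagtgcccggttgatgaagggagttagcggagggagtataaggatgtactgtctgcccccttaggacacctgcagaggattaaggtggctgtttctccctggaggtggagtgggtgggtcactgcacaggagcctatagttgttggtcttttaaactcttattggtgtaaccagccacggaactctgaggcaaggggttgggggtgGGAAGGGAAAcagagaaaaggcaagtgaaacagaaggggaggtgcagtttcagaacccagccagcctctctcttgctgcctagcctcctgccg
The motifs searched on both strands were the octamer ATTTGCAT bound by POU2F factors, the E-box CACGTG bound by MYC and its relatives, the IRF repeat (GAAA, any 2 bases, GAAA), the ETS-IRF composite (GGAA, any 2 bases, GAAA), the ETS motif CGGAAGT and the NF-kB motif (GGGA, any 2 bases, TTCC); the composite and the repeat can overlap. Of the 5 windows, that of CD38 held a match, GGAAGGGAAA to the ETS-IRF composite on the coding strand, at position -43 from the start in the promoter table. By the gene span given above, which begins at 15778275, the match lies inside the gene. The other windows held none of these letters. Among all 35116 RefSeq promoters of that length, 2.82% hold the composite, 1.77% the octamer, 7.26% the E-box, 3.57% the IRF repeat, 6.83% the ETS motif and 1.61% the NF-kB motif. The match describes the sequence of this window and says nothing of binding.

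SDC1 (ENSG00000115884, chromosome 2, 20200797 to 20225433, minus strand) was read at high levels in all libraries. KMS-11 had 98.9 and 245 CPM with JQ1 against 286 and 403 CPM with DMSO, a log2 change of -1.0 (SE 0.43; edgeR BH-adjusted p = 0.122). RPMI8226 had 429 and 319 CPM with JQ1 against 239 and 193 CPM with DMSO, a log2 change of 0.79 (SE 0.43; adjusted p = 0.225). KMS-12 had 101 and 79.5 CPM with JQ1 against 89.4 and 73.4 CPM with DMSO, a log2 change of 0.15 (SE 0.44; adjusted p = 0.862). JQ1 and DMSO libraries overlapped in KMS-12 but not in the other lines, where JQ1 libraries were below DMSO in KMS-11 and above it in RPMI8226. With 2 libraries per group such an order, here and for the other members, does not by itself show a change. Its share over all genes was not counted. With the replicate block the changes in KMS-11 (-1.12, edgeR adjusted p = 0.00121) and RPMI8226 (0.78, edgeR adjusted p = 0.00833) passed the test. The block also called the responses of KMS-11 minus RPMI8226 (-1.90, edgeR adjusted p = 0.00151; -1.79 and 0.136 without it), KMS-11 minus KMS-12 (-1.26, adjusted p = 0.00748; -1.15 and 0.278 without it) and any difference between lines (adjusted p = 0.00150; 0.148 without it). The RPMI8226 change was also called when RPMI8226 was fitted by itself (0.81, edgeR adjusted p = 0.00477), and without KMS-11 JQ1 replicate 1 (edgeR adjusted p = 0.0393) or KMS-11 JQ1 replicate 2 (0.0404), and the KMS-11 change was -1.80 and called without KMS-11 JQ1 replicate 2 (0.00461). Without that library the response of KMS-11 minus KMS-12 (-1.95), that of KMS-11 minus RPMI8226 (-2.59) and any difference (0.00626) were called too. DESeq2 called KMS-11 minus RPMI8226 (adjusted p = 0.0278) and any difference (0.0427). DMSO levels of SDC1 were 344 ± 82.5 CPM in KMS-11, 81.4 ± 11.3 CPM in KMS-12 and 216 ± 32.1 CPM in RPMI8226 (SD, n = 2 each). KMS-11 was higher than KMS-12 (edgeR adjusted p = 0.00601), and it did not differ from RPMI8226 past the test, though it did with the replicate block (edgeR adjusted p = 0.00929) and without either KMS-11 JQ1 library. The difference between KMS-12 and RPMI8226 DMSO cells, -1.41 on the log2 scale (SE 0.44; edgeR adjusted p = 0.0293), was not called without KMS-12 DMSO replicate 1 (-1.56), KMS-12 DMSO replicate 2 (-1.27), RPMI8226 DMSO replicate 1 (-1.25) or RPMI8226 DMSO replicate 2 (-1.56), nor with no filter beyond 1 read (adjusted p = 0.0559).

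Tests of any difference of response between the 3 lines called 4 of the 8 members with an estimate, against 30.1% of all genes, with edgeR BH-adjusted p of 5.43e-06 for GPRC5D, 1.16e-04 for CD38, 0.00851 for CD70 and 0.0266 for TNFRSF17. Leaving out 1 library in turn gave 2 to 5 members. By pairs, 2 members were called for KMS-11 minus KMS-12 (GPRC5D and CD70), 1 for KMS-11 minus RPMI8226 (TNFRSF13B) and 4 for KMS-12 minus RPMI8226 (TNFRSF17, GPRC5D, CD38 and CD70), against 20.0%, 11.4% and 23.4% of all genes. With the replicate block, 4 were called for KMS-11 minus KMS-12 and 4 for KMS-11 minus RPMI8226. The shares above are from the fit without the block, so they do not stand beside these counts. Library size alone moved the median of all genes by 0.51, -0.23 and -0.74 (log2) in these 3 differences, and the share of calls that were higher was then 86.5%, 18.7% and 7.42% in place of 49.4%, 41.3% and 47.3%. All 4 members called between KMS-12 and RPMI8226 had the higher value in KMS-12, against 11.1% of all genes called higher and 12.3% called lower.

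Per kilobase of exon, which allows genes to be compared, SDC1 stood first among the members in DMSO cells of KMS-11 (95.8 ± 22.9 RPKM; SD, n = 2 here and below) and RPMI8226 (60.1 ± 8.92 RPKM), and TNFRSF17 in those of KMS-12 (50.6 ± 4.13 RPKM). TNFRSF17 was then second in KMS-11 at 47.2 ± 9.17 RPKM and in RPMI8226, at 27 ± 3.80 RPKM, it came after SDC1 and CD38, CD38 being at 41.8 ± 8.23 RPKM. Just 2.5%, 1.55% and 5.23% of the genes tested lay above TNFRSF17 in DMSO cells of KMS-11, KMS-12 and RPMI8226. In JQ1 cells 48.5%, 22.3% and 69.4% did, so that this target lay in the middle range or below after JQ1 in KMS-11 and RPMI8226. SDC1 led the members in JQ1 cells of KMS-11 (47.9 ± 28.8 RPKM) and RPMI8226 (104 ± 21.7 RPKM), and CD70 led in those of KMS-12 (44.5 ± 0.0920 RPKM), next to CD38 (38.0 ± 5.52 RPKM). FCRL5 stood last or near last in each line, at most 0.509 ± 0.140 RPKM, with the longest exon model of the members (12419 bases), which lowers a value per kilobase.

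**Figure D3:**
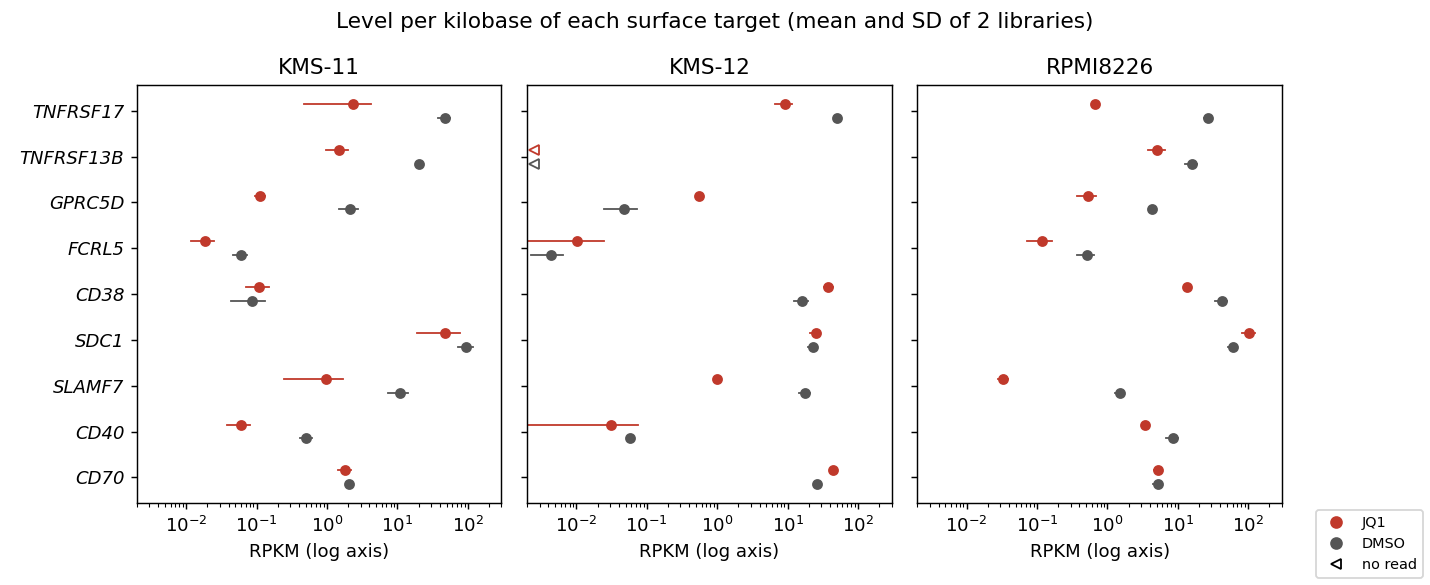
RPKM (log axis) of each member in KMS-11, KMS-12 and RPMI8226, with JQ1 (red) above DMSO (grey); points are means and lines the SD of 2 libraries, and open triangles mark groups with no read. In KMS-12, CD70 and CD38 lie highest among JQ1 levels and TNFRSF17 highest among DMSO levels, and in RPMI8226 SDC1 lies highest in both.

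In DMSO cells 7 members differed between KMS-11 and KMS-12, 6 between KMS-11 and RPMI8226 and 8 between KMS-12 and RPMI8226, where 62.9%, 58.2% and 62.5% of all genes tested were called. Library size alone moved the median of all genes by -0.21, -0.05 and 0.16 in the same order. GPRC5D was 2.01-fold lower in KMS-11 than in RPMI8226 (log2 -1.0, SE 0.31; edgeR BH-adjusted p = 0.0103), a call lost with DESeq2 (adjusted p = 0.0742), without RPMI8226 DMSO replicate 1 (-0.96) and without KMS-11 DMSO replicate 1 (-0.72). RPMI8226 had the highest DMSO level of GPRC5D, FCRL5, CD38 and CD40, and KMS-12 the highest of CD70 and the lowest of TNFRSF13B (0 reads), GPRC5D, FCRL5, CD40 and SDC1.

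As a description over the 12 libraries, which share 3 lines and 2 treatments, TNFRSF17 and SLAMF7 ran most alike among the member pairs, with Pearson's r of 0.92 on log2 CPM, followed by FCRL5 with CD40 at 0.91. Of 16904 genes with a mean of at least 1 CPM, those most like TNFRSF17 included HIPK2 (r = 0.970) and the integrin gene ITGA4 (0.968). For SLAMF7 they included IBTK (0.980), for CD38 MEF2C (0.994) and TNFRSF10D (0.989), and for GPRC5D CLIC1 (0.978), C1orf21 (0.952) and CALU (0.936). TNFRSF13B ran with LINC01359 (0.998), the overlapping TBC1D27P (0.998) and CCR1 (0.995), FCRL5 with TRPV3 (0.966), OFD1 (0.963) and LYSMD2 (0.960), CD40 with SIGLEC9 (0.989) and DESI1 (0.988), and SDC1 with PFKL (0.938) and PIMREG (0.917). CD70 ran with 3 IDs without a gene name (0.990 to 0.995). CD38 was near 0 throughout KMS-11 and TNFRSF13B at 0 throughout KMS-12, which sets such points apart in these correlations.

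Around the TNF receptor members, 13 of 15 ligands, co-receptors and TRAF pathway genes were measured, and in the average of the lines 6 rose and 4 fell, with a median log2 change of 0.23 beside -0.02 for all genes. Of all genes tested 22.3% rose and 26.7% fell in that average, the shares against which the counts of this and the following lists stand. With library size alone 2 rose and 6 fell (median -0.12). For the average, genes at large then shifted by -0.35 (log2), and 17.0% of calls were higher. The 22.3% and 26.7% belong to TMM scaling. Counts with library size alone, here and in the following lists, therefore have no background share. A lower median under that scaling is not by itself a change relative to other genes. MAP3K14, the kinase NIK that starts the noncanonical NF-kB pathway, rose by 0.95 (SE 0.06; edgeR BH-adjusted p = 4.42e-10), with 89.6 ± 2.32 CPM in KMS-11 JQ1 cells against 39.4 ± 2.37 CPM in DMSO cells (SD, n = 2). BIRC3, the ubiquitin ligase cIAP2, rose by 1.01 in the average (SE 0.06; adjusted p = 5.49e-10), with a log2 change of 3.51 in KMS-11 beside -0.31 in KMS-12 and -0.16 in RPMI8226. KMS-11 had 838 ± 93.9 CPM of BIRC3 with JQ1 against 73.6 ± 2.27 CPM with DMSO (SD, n = 2 each). The receptor adaptor TRAF5 fell by 1.59 (SE 0.11; adjusted p = 4.38e-08), with values between -1.77 and -1.41 in the lines.

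Among 11 gamma-secretase subunits and surface proteases, 3 rose and 5 fell in the average (median -0.13; 2 and 7, median -0.48, with library size alone). PSEN2, a catalytic subunit of gamma-secretase, rose by 1.14 (SE 0.12; edgeR BH-adjusted p = 2.08e-07). APH1B, an alternative structural subunit, fell by 2.10 (SE 0.22; adjusted p = 3.64e-07), and the change was -2.72 without KMS-12 JQ1 replicate 1. The sheddase ADAM10 rose by 0.40 (SE 0.06; adjusted p = 2.14e-05), a change that was 0.04 and not called with library size alone. Transcripts of gamma-secretase subunits thus moved in both directions.

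For the heparan sulfate chains that SDC1 carries, and for the other syndecans, 8 of 17 genes rose and 3 fell in the average, against 22.3% and 26.7% of all genes (median 0.31; 4 and 5, median -0.04, with library size alone). GLCE, the epimerase of the chain's uronic acids, rose by 1.89 (SE 0.07; edgeR BH-adjusted p = 1.47e-12), with line values between 1.28 and 2.29. NDST1, which begins sulfation of the chain, fell by 2.22 (SE 0.11; adjusted p = 3.83e-11), with line values between -3.16 and -1.68. The chain polymerase subunit EXT2 rose by 0.69 (SE 0.05; adjusted p = 6.53e-09) and the sulfotransferase HS6ST1 by 1.01 (SE 0.09; adjusted p = 4.51e-08). In KMS-12, EXT2 changed by 0.75, or by -0.02 with library size alone. HS6ST1 changed there by 0.38 and did not pass the test (edgeR adjusted p = 0.0780), or by -0.39 with library size alone.

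Of the relatives of FCRL5, GPRC5D and SLAMF7, 11 of 20 were measured, and 0 rose and 4 fell in the average, where 3 of the 11 had reads in every group. Counts of rises and falls in this and the other lists take in genes without reads in a group, and the medians leave them out. Among the members, TNFRSF13B was left out of such counts where a line had no read. In RPMI8226 10 of the 11 fell, against 18.6% of all genes, with a median of -3.52; some members of the list passed the low-count filter through RPMI8226 DMSO libraries, where a fall is then favoured, so the count is a description. FCRLA, for example, had 2.33 ± 1.91 CPM with JQ1 against 90.3 ± 15.3 CPM with DMSO in RPMI8226 (SD, n = 2 each) and at most 0.181 CPM in the groups of the other lines. LY9, the SLAM family receptor CD229, fell like SLAMF7 in all lines, with a log2 change of -3.22 in the average (SE 0.10; edgeR BH-adjusted p = 1.30e-13). Its change was -2.06 in KMS-11, while KMS-12 had -4.08 and RPMI8226 -3.52. CD48, another SLAM family protein, fell by 1.66 in the average (SE 0.19; adjusted p = 7.99e-06).

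**Figure D4:**
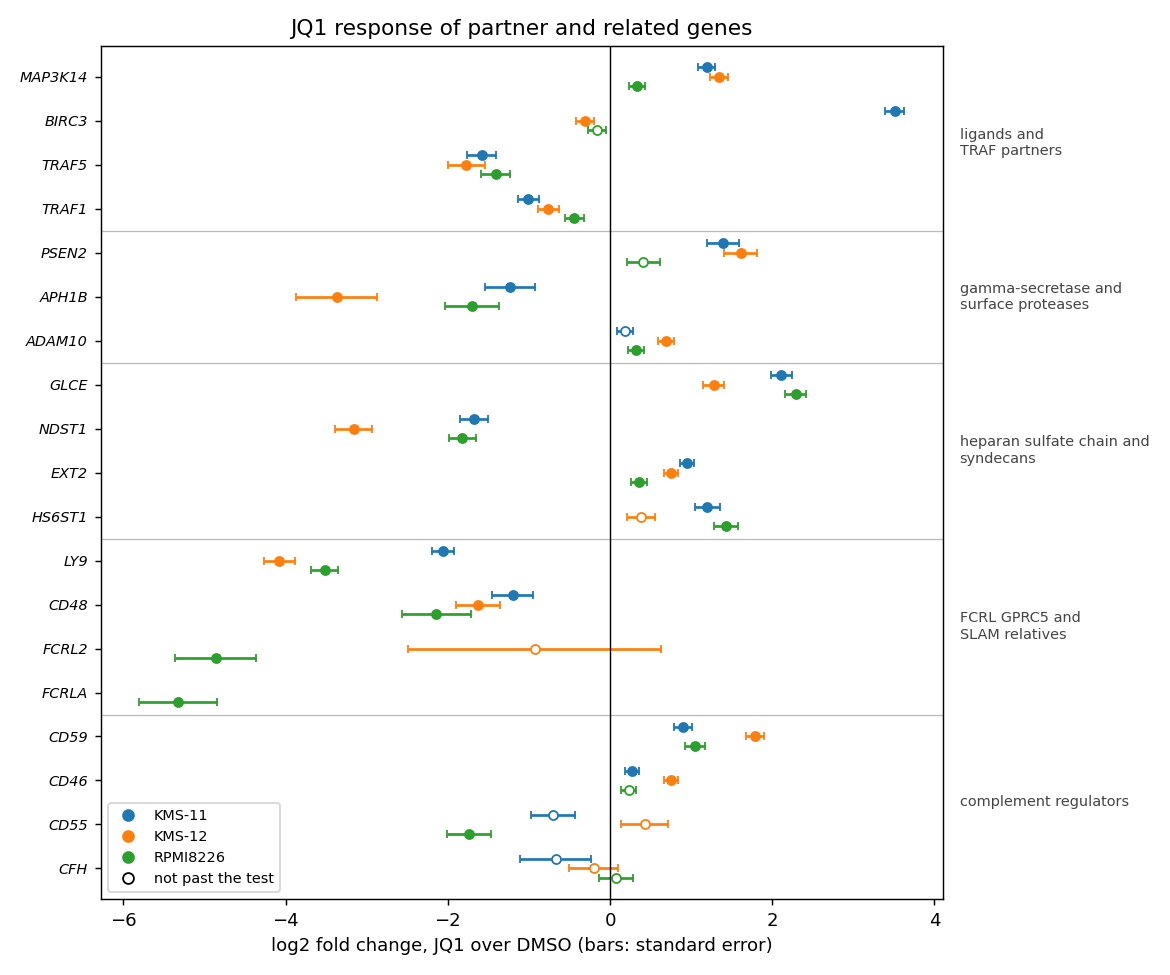
The log2 fold change of JQ1 over DMSO, with its standard error, of genes with the smallest adjusted p for the average of the lines, up to 4 in each of 5 lists; filled points passed the test in that line, open points did not, and points are missing where a group had no read. LY9, CD48, NDST1, APH1B, TRAF5 and TRAF1 lie left of 0 in all lines, while GLCE and CD59 lie right of 0 and BIRC3 is raised to 3.51 in KMS-11.

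Complement regulators, which shield cells from antibody-directed complement, gave 2 rises and 1 fall among 4 measured of 5 (median 0.08; 1 and 2, median -0.28, with library size alone). CD59, which blocks the membrane attack complex, rose by 1.25 (SE 0.07; edgeR BH-adjusted p = 4.57e-11) and in each line, with 383 ± 12.9 CPM in KMS-12 JQ1 cells against 111 ± 7.03 CPM in DMSO cells (SD, n = 2 each). CD55, which disables the complement convertases, fell by 0.67 in the average (SE 0.16; adjusted p = 0.00543), with -1.74 in RPMI8226, -0.70 in KMS-11 and 0.43 in KMS-12. CD46 rose by 0.42 (SE 0.05; adjusted p = 2.22e-06), while library size alone gave a change of 0.06 that was not called. Among 9 of 11 genes of NAD and adenosine metabolism beside CD38, 2 rose and 4 fell (median -0.24; 1 and 5, median -0.60, with library size alone); the ectoenzyme ENPP1 rose by 1.94 (SE 0.24; adjusted p = 1.91e-06) and ADA, which breaks down adenosine, fell by 2.35 (SE 0.14; adjusted p = 7.86e-10).

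Of 27 other surface antigens studied in myeloma, 21 were measured, and 5 rose and 7 fell in the average, close to the 22.3% and 26.7% of all genes (median -0.30; 4 and 12, median -0.65, with library size alone). SEMA4A, a semaphorin, fell by 1.76 (SE 0.07; edgeR BH-adjusted p = 9.61e-13), with -2.57 in KMS-11, -2.36 in RPMI8226 and -0.35 in KMS-12. Of 13 regulators of plasma and B cells, 2 rose and 5 fell (median 0.04; 1 and 8, median -0.31, with library size alone). POU2AF1, the B cell coactivator OCA-B, took opposite directions, with a log2 change of 1.30 in KMS-11 against -2.17 and -1.56 in KMS-12 and RPMI8226, each past the test. POU2F2, the octamer-binding factor OCT2 with which it works, fell by 1.29 in the average (SE 0.15; adjusted p = 7.75e-07), and PRDM1, the plasma cell repressor BLIMP1, rose by 1.18 (SE 0.08; adjusted p = 2.68e-09). In KMS-12 the POU2F2 change was -0.34 and did not pass the test (edgeR adjusted p = 0.367). With library size alone it was -1.11 and called.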

How the data were processed

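Per the labels' protocols, total RNA was made into stranded libraries after ribosomal RNA depletion. The deposited table holds raw read counts per Ensembl gene ID and library. The submitters' processing notes list hg38, GRCh38.p13, DESeq2 and MACS2 and give them no role; which aligner and counter made the counts, and whether strand was used, is not given in the sources used here.

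The counts were tested in R 4.3.3 with edgeR 4.0.16: 1 robust quasi-likelihood fit with a mean for each of 6 groups, after TMM scaling and the filterByExpr filter (minimum count 10, minimum total 15). The filter kept 99.90% to 99.96% of the counts of each library. Benjamini-Hochberg adjustment ran over all 23493 genes, and genes were called at an adjusted p under 0.05. The standard error of a log2 change was taken from its F statistic, and a contrast with a group at 0 reads has none. RPKM used exon-union lengths from GENCODE 29 (GRCh38); symbols paired 99.62% of the IDs. The code was tested on simulated counts.

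Replicates of a group differed by more than sampling noise (chi-square per degree of freedom 5.64 to 22.3). Same-numbered JQ1 and DMSO libraries deviated together from their group means, with correlations over 10132 genes of 0.158 (KMS-11), 0.102 (KMS-12) and 0.375 (RPMI8226). With 2 libraries per group, each line gives a single pair of deviations, and genes do not vary independently. These correlations therefore cannot show whether same-numbered libraries were paired. The main fit has no block, and blocked values are given as an alternative where they change a call.

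The members and the gene lists were chosen with earlier results of these data known. All 9 members are named, at most 4 genes of each other list by the smallest adjusted p in the average of the lines, and for each member up to 3 genes with the highest correlation; a few genes that these rules name are not reported here. Alternatives were DESeq2 1.42.0, limma-voom (limma 3.58.1), RLE scaling, library size alone, a filter at a mean of 1 CPM or at 1 read, a replicate block within each line, a fit of the compared lines only, and leaving out each library in turn, which takes the spread of a lone library from the other groups.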

Additional observations from a re-analysis of the deposited data

Results flagged for a closer look

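The test of any difference of response called 4 of the 8 members with an estimate, against 30.1% of all genes. TNFRSF13B, without reads in KMS-12, was compared between KMS-11 and RPMI8226 alone. There it was the 1 member called of 9 (11.1%), near the 11.4% of all genes. GPRC5D (edgeR, Benjamini-Hochberg adjusted p = 5.43e-06 for any difference) and CD38 (adjusted p = 1.16e-04) were higher with JQ1 in KMS-12 and lower in RPMI8226. With library size alone the KMS-12 change of CD38 was 0.50 and did not pass (edgeR adjusted p = 0.0591). CD70 differed with adjusted p = 0.00851 (edgeR), but 0.0527 without KMS-12 DMSO replicate 2 and 0.300 with library size alone, over a range down to 0.00147. TNFRSF17 fell in each line and differed in size with adjusted p = 0.0266 (edgeR); the range over alternatives was 1.82e-06 to 0.107, and the call was lost with library size alone (0.0536) and without any 1 of KMS-11 DMSO replicate 2, all 4 RPMI8226 libraries, both KMS-12 DMSO libraries or KMS-12 JQ1 replicate 2. TNFRSF13B fell further in KMS-11 than in RPMI8226, by a difference of -2.20 on the log2 scale (SE 0.35; edgeR adjusted p = 0.00312), and has no reads in KMS-12.

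The test of any difference for CD38 did not pass with limma-voom (adjusted p = 0.0928), while the adjusted p of the difference between KMS-12 and RPMI8226 ranged from 1.61e-48 to 0.00112 over all settings, DESeq2 and limma-voom included.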

How the results depend on the processing

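Over 20 settings, 1712 of 1852 values of the members kept their direction and their side of the threshold, 36 lost the call, 69 gained one and 35 changed sign. The causes were not tested.

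With library size alone, KMS-12 had 3 members called, KMS-11 minus KMS-12 had 7647 genes and 1 member, KMS-11 minus RPMI8226 2 members, KMS-12 minus RPMI8226 10247 genes and any difference 11281 genes. It turned SDC1 (-0.62) and CD70 (-0.01) in KMS-12, CD70 in RPMI8226 (-0.02) and in the average (-0.15), and CD40 for KMS-12 minus RPMI8226 (-0.24). For KMS-11 minus RPMI8226, 3 members were called with no filter beyond 1 read and with DESeq2, 4 with the replicate block and 2 with only the lines compared. The block also called 4 for KMS-11 minus KMS-12. Shares of all genes called under these settings are not given here. The block changed no other call than those given with the results. CD70 in RPMI8226 was -0.03 with RLE scaling and DESeq2 and -0.01 at a mean of at least 1 CPM, and CD38 in the average, at 0.00, was 0.02 with limma-voom and 0.00 with the block.

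Leaving out 1 library gave 1639 to 3155 genes and 1 to 3 members for KMS-11 minus RPMI8226, 2 to 4 members for KMS-11 minus KMS-12 and for KMS-12 minus RPMI8226, and 2 to 5 for any difference. Signs changed among uncalled values: CD38 (-0.12 to 0.98) and CD70 (-0.41 to 0.02) in KMS-11, SDC1 (-0.03 to 0.31) and CD40 (-0.86 to 0.13) in KMS-12, CD70 in RPMI8226 (-0.13 to 0.16), CD38 (-0.15 to 0.21) and SDC1 (-0.28 to 0.15) in the average, SLAMF7 for KMS-11 minus KMS-12 (-0.43 to 1.26), TNFRSF17 (-0.22 to 1.62), FCRL5 (-0.02 to 0.91) and CD70 (-0.43 to 0.01) for KMS-11 minus RPMI8226, and the DMSO level of TNFRSF17 for KMS-11 minus KMS-12 (-0.32 to 0.09). Without KMS-12 JQ1 replicate 1, FCRL5 had no read left in that group and no fitted value (adjusted p = 0.0242 in the average, edgeR), likewise CD40 without KMS-12 JQ1 replicate 2 (any difference 0.0457). Depth limits CD40, FCRL5 and GPRC5D in KMS-12 and CD38 in KMS-11, each with at most 30 reads in a group. It also limits GPRC5D (5 reads), CD40 (6) and FCRL5 (9) in KMS-11 JQ1 cells. In RPMI8226 JQ1 cells it limits SLAMF7 (6 reads), GPRC5D (22) and TNFRSF17 (29). TNFRSF13B had 0 reads in KMS-12.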
